A study of Mus musculus with 20 samples.

Results

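The genes described here are 6 classic markers of tubular injury, Havcr1, Lcn2, Spp1, Clu, Vim and Cd44, taken by symbol from a table of 6025 genes, and all 6 symbols were found once. The table came from RNA sequencing of the kidney cortex of 20 mice, 1 library per mouse, in a series whose title concerns SOX9 and the transcription of VGF. All animals were labelled as wild-type (WT) mice of the C57BL/6 strain (C57BL/6J in the protocol), 8 weeks old. The groups were controls (n = 8), ischemia-reperfusion injury (IRI, n = 4) sampled at 24 h, rhabdomyolysis (n = 4) sampled at 24 h and cisplatin (n = 4) sampled at 72 h. IRI stops and restores blood flow to the kidney, rhabdomyolysis releases the contents of broken muscle fibres into the blood, and cisplatin is a platinum drug toxic to the tubule. Every control library is labelled mock, the design text calls the controls mock and vehicle, and the kinds cannot be told apart. Injury type and sampling time cannot be told apart for cisplatin. The ischemia time, the agent of rhabdomyolysis and the cisplatin dose are not given in the sources used here.

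The tubule epithelium of the kidney answers damage by switching on genes that are silent or low in the healthy organ, and several of their products are measured in urine as signs of acute kidney injury. Havcr1 encodes kidney injury molecule-1, a membrane receptor for phosphatidylserine with which injured proximal tubule cells take up dying neighbours. Lcn2 encodes lipocalin-2, also called NGAL, a secreted protein that binds iron-loaded siderophores and is made by neutrophils as well as by injured distal tubule. Spp1 encodes osteopontin, a secreted phosphoprotein that binds integrins and CD44. Clu encodes clusterin, a secreted chaperone that also restrains the terminal complement complex. Vim encodes vimentin, an intermediate filament protein of mesenchymal cells that dedifferentiated tubule cells also make. Cd44 encodes the surface receptor for hyaluronan. In whole cortex, more cells that express a gene and more RNA per cell cannot be told apart.

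By their titles the libraries carry numbers from 2 ranges. IRI shares a range with controls 1 to 4, while rhabdomyolysis and cisplatin share the other with controls 5 to 8. The reference for an injury was always the control quartet numbered alongside it, called its matched controls, and between IRI and another injury the rises over matched controls were compared. Where levels or ratios of IRI mice are set beside those of another injury below, they cross the 2 ranges and carry no test. The share of all genes whose IRI mice do not overlap another injury was not computed. Values are CPM (counts per M, mega, reads), and the table held 3.48 to 5.40 M recovered reads per library. Its genes are a selection, since the group mean of at least 1 injury departed 1.5-fold or more from that of the controls for 6025 of 6025, and the shares of called genes are high throughout. The design text calls the mice biological replicates.

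All 6 markers were higher in all 3 injuries than in the matched controls at a limma adjusted p under 0.05. In each injury the lowest injured mouse also lay above the highest of all 8 controls, for every one of the 6. The same call, higher with adjusted p under 0.05, was reached by 40.6%, 48.8% and 47.8% of the 5672 tested genes in IRI, rhabdomyolysis and cisplatin, and by 35.3% in all 3 at once. The share of tested genes with all 4 injured mice above all 8 controls was 31%, 42.3% and 40.7%. The calls were thus shared with a large part of the table. Havcr1 and Lcn2 rose most, by 550-fold to 1885-fold in group means. Spp1 rose by 13.7-fold to 25.7-fold, Clu by 6.25-fold to 13.6-fold, Cd44 by 5.86-fold to 23.3-fold and Vim by 2.41-fold to 4.99-fold.

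**Figure D1:**
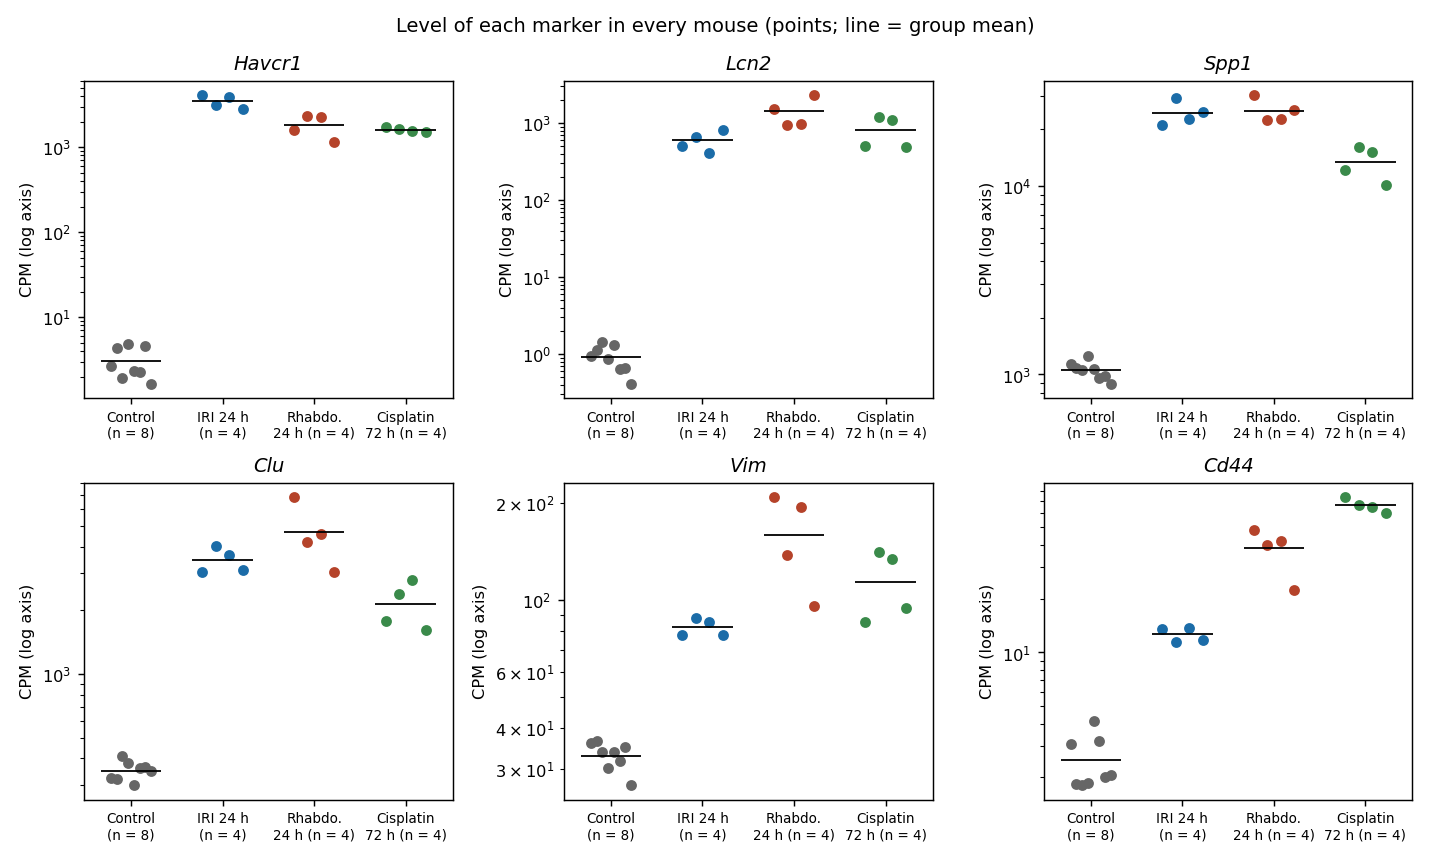
Level of each of the 6 markers in CPM on a log axis (y) in the control, IRI, rhabdomyolysis and cisplatin groups (x). Each point is 1 mouse and each line is the group mean. Every injured mouse lies above every control for every marker, with the widest gap for Havcr1 and Lcn2.

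Havcr1 (chr11:46735080-46779578, plus strand, 8 exons in its longest principal transcript, coordinates of GENCODE vM21 on GRCm38) was close to silent in the controls, at 1.66 to 4.89 CPM with a median of 2.50, which rests on 12 to 34 reads per library. The IRI mice 1 to 4 had 4062, 3094, 3862 and 2851 CPM. The rhabdomyolysis mice had 1611, 2300, 2275 and 1156 CPM, and the cisplatin mice had 1724, 1659, 1546 and 1512 CPM. By level all 4 IRI mice were above all 8 mice of the other injuries, whereas rhabdomyolysis and cisplatin overlapped. Compared by rise over matched controls, Havcr1 did not pass between IRI and rhabdomyolysis (limma adjusted p = 0.0879) or cisplatin (limma adjusted p = 0.0648). The group means were 3467 ± 586 CPM after IRI, 1835 ± 554 CPM after rhabdomyolysis and 1610 ± 98.6 CPM after cisplatin (SD, n = 4 each). On the log2(CPM + 1) scale the rise was 9.64 in IRI (SE 0.23, limma adjusted p = 1.40e-18), the highest rise of all 5672 genes tested. It was 8.96 in rhabdomyolysis and 8.83 in cisplatin, the second highest in both.

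Lcn2 (chr2:32384633-32388252, minus strand, 6 exons) had the lowest control level of the 6 in CPM not divided by length, 0.414 to 1.42 CPM with a median of 0.902, from only 3 to 11 reads per library. The IRI mice had 502, 657, 411 and 825 CPM. The rhabdomyolysis mice had 1525, 940, 979 and 2289 CPM, and the cisplatin mice had 502, 1185, 1099 and 487 CPM. All rhabdomyolysis mice exceeded all IRI mice, and the cisplatin mice fell into a low pair and a high pair. On the log2(CPM + 1) scale the rise was 8.12 after IRI, 9.60 after rhabdomyolysis and 8.76 after cisplatin (SE 0.29 each), which ranked it 2, 1 and 3 among the genes tested. Counting error alone gives the Lcn2 value of a control library a coefficient of variation of 39.2%, so the fold of Lcn2 is known less closely than its injured level.

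Spp1 (chr5:104435118-104441050, plus strand, 6 exons) differed from both by being abundant in the healthy cortex, at 895 to 1260 CPM with a median of 1066. The IRI mice had 20905, 29173, 22648 and 24551 CPM, the rhabdomyolysis mice 30158, 22436, 22484 and 25286 CPM, and the cisplatin mice 12189, 15993, 15030 and 10141 CPM. The highest cisplatin mouse was below the lowest mouse of the other injuries. The rise was 4.42 in IRI, 4.67 in rhabdomyolysis and 3.75 in cisplatin (log2, SE 0.16 each), which ranked Spp1 12, 35 and 86 among the genes tested.

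Clu (chr14:65968483-65981547, plus strand, 9 exons) stood at 299 to 411 CPM in the controls, with a median of 354. The IRI mice had 3051, 4046, 3635 and 3087 CPM, the rhabdomyolysis mice 6849, 4202, 4579 and 3039 CPM, and the cisplatin mice 1787, 2392, 2777 and 1620 CPM. As for Spp1, every cisplatin mouse was below every mouse of the other injuries. The rise was 3.27 in IRI, 3.71 in rhabdomyolysis and 2.61 in cisplatin (log2, SE 0.20 each), at ranks 44, 84 and 230.

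Vim (chr2:13573927-13582826, plus strand, 9 exons) had the smallest rise of the 6 in every injury. Controls had 26.7 to 36.5 CPM, with a median of 33.9. The IRI mice had 77.8, 87.6, 85.4 and 77.8 CPM, the rhabdomyolysis mice 208, 138, 194 and 95.5 CPM, and the cisplatin mice 85.2, 141, 134 and 94.7 CPM. The IRI mice lay within a narrow band below all rhabdomyolysis mice, and the cisplatin mice overlapped both injuries. The rise was 1.25 in IRI, 2.23 in rhabdomyolysis and 1.78 in cisplatin (log2, SE 0.19 each), at ranks 571, 371 and 537.

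Cd44 (chr2:102811141-102901665, minus strand, 19 exons) was low in the controls, at 1.81 to 4.12 CPM with a median of 2.04 and 13 to 25 reads. The IRI mice had 13.5, 11.5, 13.7 and 11.8 CPM, the rhabdomyolysis mice 48.4, 39.8, 42.1 and 22.5 CPM, and the cisplatin mice 73.9, 66.4, 65.2 and 60.4 CPM. By level the 3 injuries did not overlap, and Cd44 was the only marker of the 6 with cisplatin above rhabdomyolysis in every mouse. The rise was 2.13 in IRI, 3.33 in rhabdomyolysis and 4.16 in cisplatin (log2, SE 0.20 each), at ranks 161, 115 and 58.

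Divided by the length of the longest principal transcript, the levels can be set beside each other. Spp1 was the most abundant of the 6 in every group, at 700 ± 75.3 CPM per kb in the controls (SD, n = 8) and 16138 ± 2364, 16650 ± 2410 and 8851 ± 1775 CPM per kb in the 3 injuries in the order IRI, rhabdomyolysis, cisplatin (SD, n = 4 each). Clu came second in all 4 groups in this mean, although in IRI its 1909 ± 263 CPM per kb differed from the 1833 ± 310 of Havcr1, and in cisplatin its 1185 ± 297 from the 894 ± 410 of Lcn2, by less than either SD. Havcr1 moved from place 4 in the controls (1.63 ± 0.687 CPM per kb) to place 3 in IRI. In rhabdomyolysis Lcn2 held place 3 with 1566 ± 688 CPM per kb against 970 ± 293 for Havcr1, and in cisplatin Lcn2 and Havcr1 (851 ± 52.1) lay within 1 SD of each other. Cd44 was the lowest in all 4 groups, from 0.445 ± 0.154 CPM per kb in the controls to 11.8 ± 0.992 in cisplatin. So the order by level, led by Spp1, is not the order by rise, led by Havcr1 and Lcn2.

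Some reads of these genes could also have come from neighbours, and the share was measured as 31-base stretches of the transcripts that recur in other genes. For Havcr1 this was 165 of 2306 stretches (7.16%), of which 135 recur in its paralog Timd2. For Spp1 it was 250 of 1753, all in Gm42793, an unconfirmed transcript annotated on the same strand within the locus. Lcn2 and Clu had 0 such stretches, and the small nuclear RNA gene Gm23731 lies within Cd44 on the other strand. The counting of strand is not given in the sources used here.

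Sequence before the start sites was examined because the markers rise together. RefSeq start sites on GRCm38.p6 gave 8 windows of 250 bases for 5 members, 1 each for Lcn2, Vim and Cd44, 2 for Spp1 and 3 for Havcr1. They were searched on both strands for AP-1 (TGANTCA), STAT (TTCNNNGAA), NF-kB (GGGA, any base, TTTCC), C/EBP (TTNNGCAA), SOX (AACAAT) and the heat shock element (GAANNTTC). C/EBP letters were found in 3 of the 8 windows, 1 each of Lcn2, Spp1 and Havcr1, and in 9.56% of all 32851 windows. The matched windows of Spp1 and Havcr1 lie inside the gene spans given above, before alternative start sites. The other windows of these genes held no C/EBP match. A heat shock match was found in 1 window, of Havcr1, against 6.69% of all windows. AP-1, STAT, NF-kB and SOX letters, held by 6.75%, 7.02%, 0.356% and 9.42% of all windows, were not in these 8. The 3 C/EBP stretches are shown 5′ to 3′ on the strand of the gene, with the matched letters in capitals.
Lcn2, chr2:32387938-32387965, minus strand, match at -216 to -209 from the start: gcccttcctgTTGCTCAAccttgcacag
Spp1, chr5:104436026-104436053, plus strand, match at -156 to -149: tttttcttccTTGCAGAAagtactctca
Havcr1, chr11:46750455-46750482, plus strand, match at -46 to -39: gtttttatggTTTAGCAAttaagaagca
The whole Havcr1 window that holds both kinds of match is shown because Havcr1 has the highest rise in IRI. The heat shock letters (-108 to -101) come before the C/EBP letters, the matches do not overlap, and both are in capitals.
Havcr1, chr11:46750261-46750510, plus strand: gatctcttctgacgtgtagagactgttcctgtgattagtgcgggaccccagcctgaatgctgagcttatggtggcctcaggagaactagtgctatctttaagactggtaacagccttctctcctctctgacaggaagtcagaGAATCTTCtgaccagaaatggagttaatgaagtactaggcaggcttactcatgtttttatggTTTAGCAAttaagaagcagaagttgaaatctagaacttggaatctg
These are matches of letters. Binding was not measured.

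The order of the markers by rise was compared within mice, through the log2 ratio of neighbouring markers in the 4 injured and 4 matched control libraries (two-sided exact permutation test, 70 arrangements, smallest possible p 0.0286, Benjamini-Hochberg over 15 tests). In IRI the order was Havcr1, Lcn2, Spp1, Clu, Cd44, Vim, and all 5 steps passed, each at the smallest p (permutation adjusted p = 0.039). The first of them, Havcr1 over Lcn2, did not pass without any one of 6 libraries, controls 1 to 4 and IRI mice 1 and 3, where the difference lay between 1.26 and 1.72 (permutation adjusted p = 0.0779 each). In rhabdomyolysis Lcn2 was ahead of Havcr1 by 0.63 (log2), which did not pass (permutation adjusted p = 0.367), then came Spp1, Clu, Cd44 and Vim. Without rhabdomyolysis mouse 4 the step from Spp1 to Clu (0.77) did not pass (permutation adjusted p = 0.0779). The step from Clu to Cd44, 0.37, did not pass either (permutation adjusted p = 0.264). In cisplatin Havcr1 and Lcn2 differed by 0.06 (permutation adjusted p = 0.914), and Cd44 came next, 0.41 ahead of Spp1 (permutation adjusted p = 0.179), followed by Clu and Vim. Thus Cd44 was placed 5 by rise in IRI and rhabdomyolysis and 3 in cisplatin, with the step above Spp1 unresolved.

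In all, 11 of the 15 steps passed. The steps were set by sorting the rises in these same data, so the passes are no independent evidence of an order. Each pass also rests on how many of the 15 tests reach the smallest p. The share of other gene pairs that would pass was not computed. Because Lcn2 has so few reads in controls, the pseudocount bears on its place. With a pseudocount of 0.1 in place of 1, Havcr1 led Lcn2 in IRI by 1.05 with a permutation adjusted p of 0.165, in cisplatin Lcn2 came out ahead (Havcr1 minus Lcn2, -0.60), and the step from Cd44 to Spp1 in cisplatin passed (0.80, permutation adjusted p = 0.039).

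**Figure D2:**
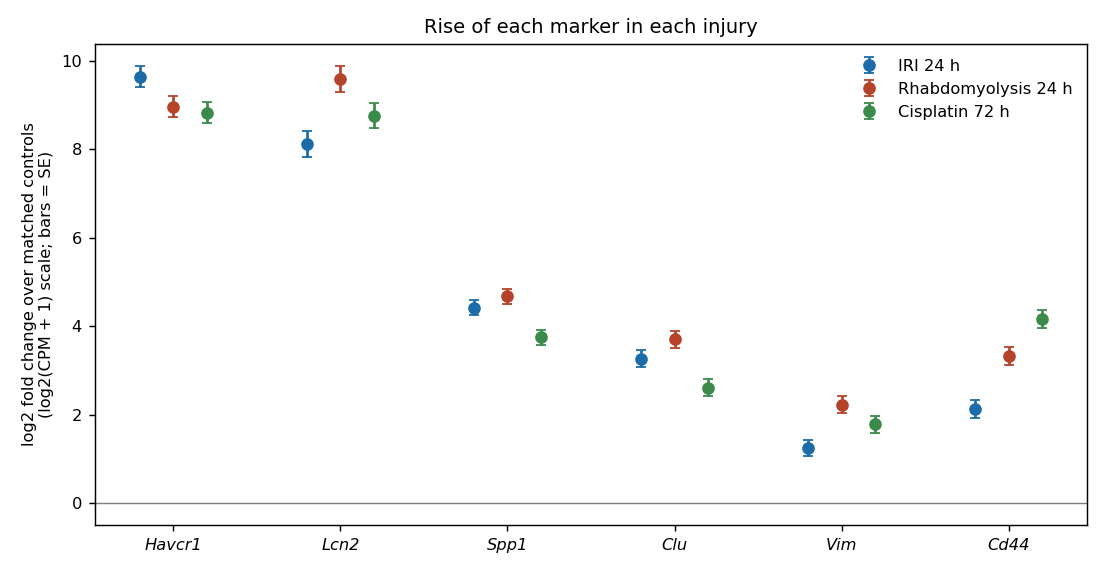
Rise over the matched controls on the log2(CPM + 1) scale (y) of each marker (x) in IRI, rhabdomyolysis and cisplatin, with 1 SE as the bar. Havcr1 and Lcn2 lie between 8.12 and 9.64, Spp1 and Clu between 2.61 and 4.67, Vim between 1.25 and 2.23, and Cd44 climbs from 2.13 in IRI to 4.16 in cisplatin.

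Rhabdomyolysis and cisplatin share the range of library numbers and were compared directly. The RNA of Lcn2, Spp1 and Clu was higher in rhabdomyolysis, and that of Cd44 was higher in cisplatin. These 4 of the 6 passed the limma adjusted p of 0.05, which 54.1% of all tested genes did. Clu differed by 1.09 (log2, SE 0.20, adjusted p = 7.04e-05), Spp1 by 0.92 (SE 0.16, adjusted p = 6.93e-05), Lcn2 by 0.83 (SE 0.29, adjusted p = 0.0197) and Cd44 by -0.83 (SE 0.20, adjusted p = 0.00144). Under quantile normalization the Clu difference was 0.52 (adjusted p = 0.0202). The mice of both injuries did not overlap for Spp1, Clu and Cd44, 3 of 6 members, and for 47.8% of all tested genes. For Havcr1 the difference was 0.14 (SE 0.23, adjusted p = 0.645), and quantile normalization turned its sign (-0.03). Vim differed by 0.45 (SE 0.19) and just missed the threshold (adjusted p = 0.0507).

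The Lcn2 and Vim calls depended on single mice. The Lcn2 difference did not pass without rhabdomyolysis mouse 1 (0.77, adjusted p = 0.0508), rhabdomyolysis mouse 4 (0.57, adjusted p = 0.0960), cisplatin mouse 1 (0.64, adjusted p = 0.0842) or cisplatin mouse 4 (0.62, adjusted p = 0.0898), nor in a fit of only these groups (adjusted p = 0.0641). The Vim difference passed without rhabdomyolysis mouse 4 (0.67, adjusted p = 0.00195), cisplatin mouse 2 (0.56, adjusted p = 0.0215) or cisplatin mouse 3 (0.53, adjusted p = 0.0319), and in 7 of the 12 other settings run, among them edgeR (0.48, adjusted p = 0.0335) and DESeq2 (0.59, adjusted p = 0.00513) on the recovered reads.

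The effect of IRI was then compared with that of rhabdomyolysis, both at 24 h and each against its own controls. Lcn2, Vim and Cd44 rose less in IRI, 3 of 6 members called against 52% of all tested genes. The difference of effects, IRI minus rhabdomyolysis, was -1.47 for Lcn2 (log2, SE 0.41, limma adjusted p = 0.00524), -0.98 for Vim (SE 0.27, adjusted p = 0.00441) and -1.21 for Cd44 (SE 0.29, adjusted p = 0.00145). Havcr1 was the only member with a positive difference, 0.68 (SE 0.33, adjusted p = 0.0879), and it did not pass. Spp1 (-0.26, SE 0.23, adjusted p = 0.362) and Clu (-0.44, SE 0.28, adjusted p = 0.185) did not pass either. For Lcn2, edgeR on the recovered reads gave -1.81 with an adjusted p of 0.0678, and -1.88 with 0.0581 under TMM scaling. Havcr1 passed with all 8 controls taken as 1 group (0.96, adjusted p = 0.00107), without control 4 (0.83, adjusted p = 0.0412) or control 8 (0.82, adjusted p = 0.0486), and Clu without rhabdomyolysis mouse 4 (-0.63, adjusted p = 0.0440).

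Between the effects of IRI and cisplatin, Cd44 gave the clearest difference among the 6, -2.04 (log2, SE 0.29, limma adjusted p = 1.36e-05), a rise of 5.86-fold in IRI against 23.3-fold in cisplatin. Spp1 rose more in IRI, by 0.67 (SE 0.23, adjusted p = 0.0342). These 2 of 6 passed, as did 30.3% of all tested genes. The differences of Havcr1 (0.81, SE 0.33, adjusted p = 0.0648), Clu (0.65, SE 0.28, adjusted p = 0.0769), Vim (-0.53, SE 0.27, adjusted p = 0.135) and Lcn2 (-0.64, SE 0.41, adjusted p = 0.251) did not. The Spp1 call was lost without any one of 8 libraries, namely controls 2, 3, 5, 6 and 7, cisplatin mice 1 and 4 and IRI mouse 2, where the difference stayed between 0.54 and 0.67 and the adjusted p lay between 0.0512 and 0.0739. Quantile normalization took it to 0.39 (adjusted p = 0.254). With all 8 controls as 1 group Havcr1 (1.09, adjusted p = 0.000576) and Clu (0.71, adjusted p = 0.00406) passed too, as they did in a fit of only the groups compared (adjusted p = 0.0488 and 0.0362). Havcr1 passed without control 2 (0.92, adjusted p = 0.0459), control 4 (0.96, adjusted p = 0.0305) or control 8 (0.95, adjusted p = 0.0395), and Clu without cisplatin mouse 3 (0.79, adjusted p = 0.0381).

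**Figure D3:**
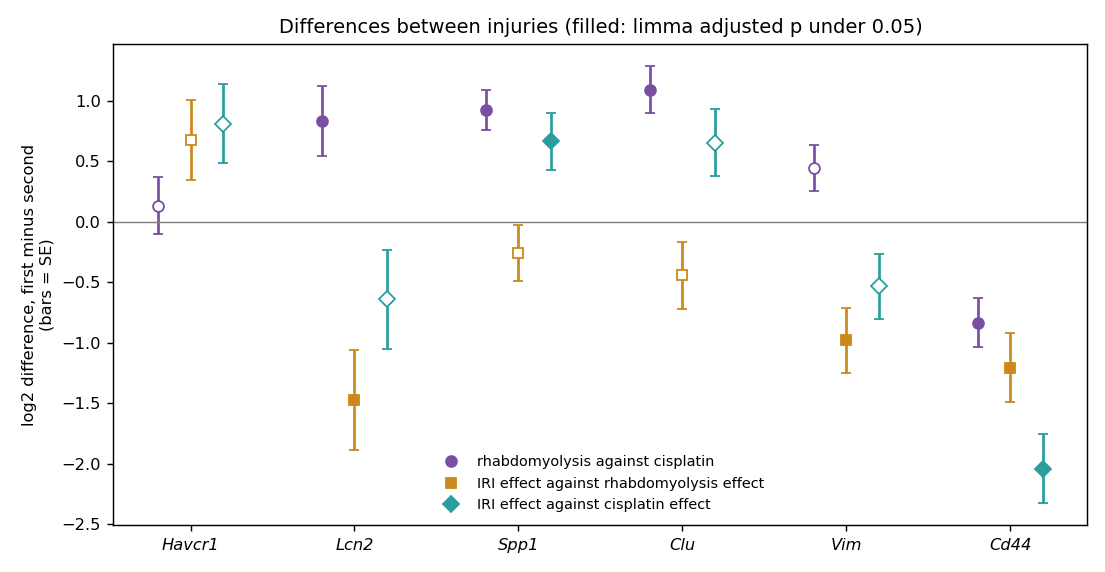
Log2 difference between injuries, first minus second (y), for each marker (x) in the 3 comparisons, with 1 SE as the bar. Filled symbols passed a limma adjusted p of 0.05. Cd44 is negative in all 3 comparisons, down to -2.04, while Havcr1 is positive in all 3 and passes in none.

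The spread between mice differed from injury to injury and from marker to marker. Havcr1 was tightest in cisplatin, with an SD of 0.09 on the log2(CPM + 1) scale against 0.25 in IRI and 0.47 in rhabdomyolysis. Lcn2 was the most variable in IRI (0.44), rhabdomyolysis (0.60) and cisplatin (0.70). In the same order of injuries, IRI, rhabdomyolysis and cisplatin, Vim had SDs of 0.09, 0.51 and 0.36 and Cd44 of 0.12, 0.47 and 0.12. Clu had 0.20, 0.48 and 0.36, and Spp1, at 0.21, 0.20 and 0.30, was the only marker whose spread in rhabdomyolysis was not above that in IRI. The part of counting error differed between markers. The coefficient of variation of Havcr1 in cisplatin was 6.12% with 0.812% from counting, and that of Lcn2 in rhabdomyolysis was 44.0% with 0.844% from counting. For Cd44 the coefficient of variation was 9.08% with 9.87% from counting in IRI, 29.03% with 5.07% in rhabdomyolysis and 8.38% with 4.00% in cisplatin. For Vim it was 6.25% with 3.87% from counting in IRI, 32.8% with 2.49% in rhabdomyolysis and 24.5% with 3.05% in cisplatin. No test of these spreads was made, since 4 mice give each SD.

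The order of the mice within an injury was shared by some markers and not by others. Rhabdomyolysis mouse 1 was the highest of its group for Spp1, Clu, Vim and Cd44. Rhabdomyolysis mouse 4 was the lowest for Havcr1, Clu, Vim and Cd44 and at the same time the highest for Lcn2. Its log2 deviation from the group mean was -0.61 for Havcr1, -0.56 for Clu, -0.66 for Vim and -0.69 for Cd44, against 0.77 for Lcn2. Cisplatin mouse 4 was the lowest of its group for 5 of the 6, all but Vim, and cisplatin mouse 2 was the highest for Lcn2, Spp1 and Vim. The 4 mice stood in 1 order for Clu, Vim and Cd44 in rhabdomyolysis, for Clu and Vim in IRI, and in cisplatin for Lcn2 and Spp1 and, in another order, for Havcr1 and Cd44. IRI mouse 2 was the highest for Spp1, Clu and Vim but the lowest for Cd44. IRI mouse 4 was the lowest for Havcr1 and the highest for Lcn2, as rhabdomyolysis mouse 4 was, and IRI mouse 3 was the lowest for Lcn2. These are ranks of 4 mice and carry no test.

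**Figure D4:**
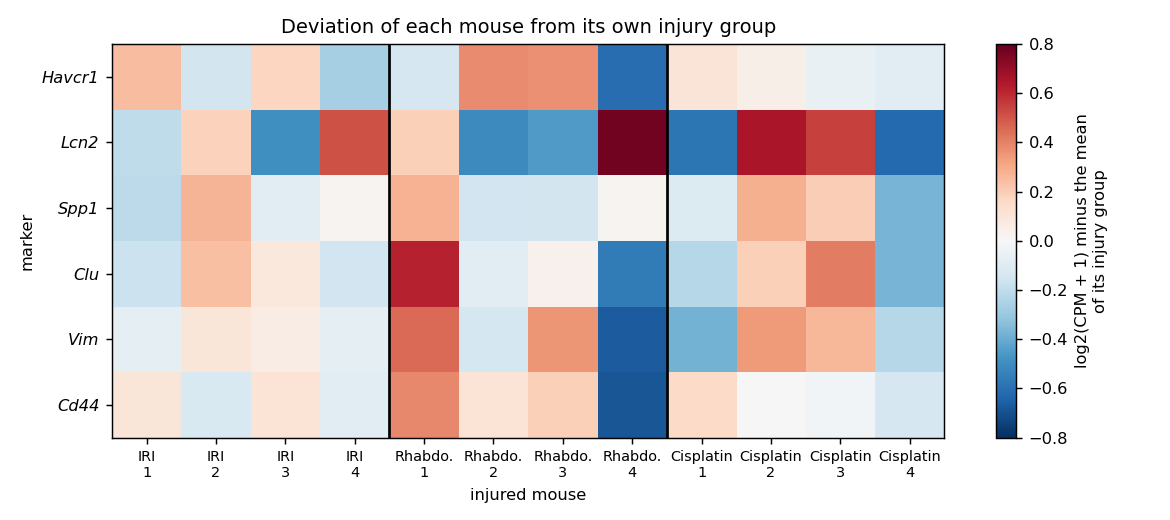
Deviation of each injured mouse (x) from the mean of its own injury group on the log2(CPM + 1) scale (colour) for each marker (y). Rhabdomyolysis mouse 4 combines 0.77 for Lcn2 with -0.61 for Havcr1, and cisplatin mouse 4 is negative for all 6.

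Ratios of the CPM of 2 markers within a mouse do not depend on how the library was scaled. The permutation tests of the 15 pairs used log2(CPM + 1), where low levels keep some dependence on it. Havcr1 over Lcn2 was 8.10, 4.71, 9.40 and 3.46 in the IRI mice, 1.06, 2.45, 2.33 and 0.505 in rhabdomyolysis and 3.43, 1.40, 1.41 and 3.10 in cisplatin, with 1.36 to 6.80 in the controls. All IRI mice lay above all mice of the other injuries, and only rhabdomyolysis mouse 4 had more Lcn2 than Havcr1 reads. Clu over Cd44 separated all 3 injuries, at 226 to 353 in IRI, 106 to 142 in rhabdomyolysis and 24.2 to 42.6 in cisplatin, with 72.6 to 227 in the controls. Havcr1 over Cd44 did so too, at 242 to 301, 33.3 to 57.8 and 23.3 to 25.0, and its controls had 0.560 to 2.62. The IRI ratios are from the other range of library numbers. The share of all pairs of genes that separate all 3 injuries was not computed. Of the 15 pairs of markers, 8 did not overlap between rhabdomyolysis and cisplatin, among them all 5 pairs with Cd44, and 47.2% of all pairs of the 5672 genes tested did not overlap, a share near that of the markers. Each of the 8 had the smallest p the two-sided exact permutation test allows, 0.0286, and none of the 15 passed after Benjamini-Hochberg adjustment (adjusted p = 0.0536).

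**Figure D5:**
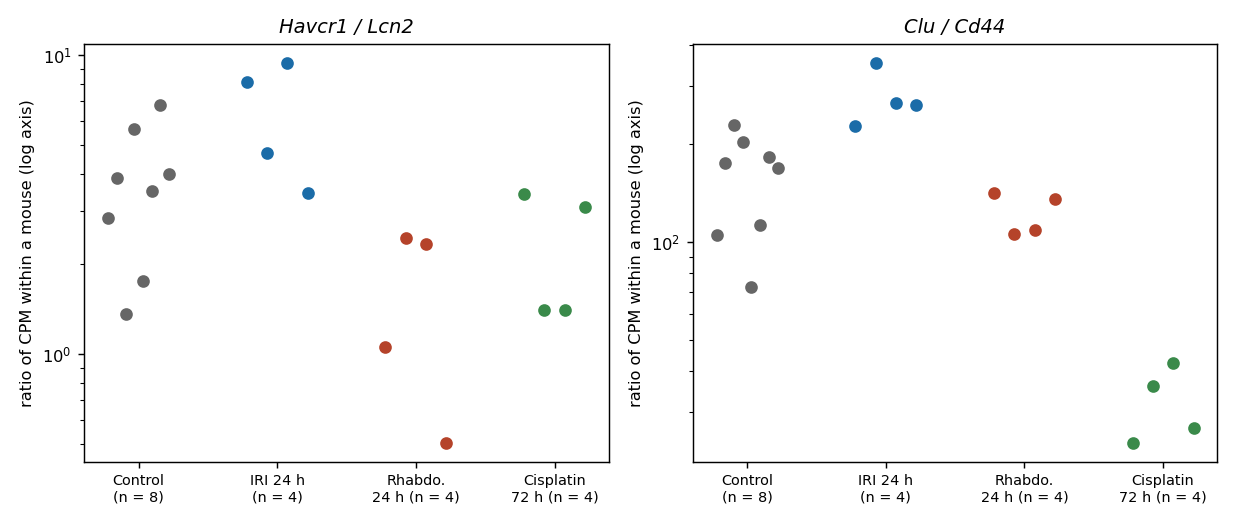
Ratio of CPM of 2 markers within a mouse (y, log axis) in the 4 groups (x), 1 point per mouse. Clu over Cd44 falls from 226 to 353 in IRI to 24.2 to 42.6 in cisplatin without overlap, and Havcr1 over Lcn2 is at least 3.46 in every IRI mouse.

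The genes whose pattern was most like each marker were taken as the 3 with the highest Pearson r over the 12 injured libraries among 3769 genes that averaged 10 CPM or more there. The libraries share depth scaling and fall into 3 injury groups, so r describes this set only. Nearest to Havcr1 were Ppt2 (r = 0.952), its paralog Timd2 (0.947) and Sfxn5 (0.945). Timd2 shares 135 stretches of 31 bases with Havcr1, and the part of shared reads in its r was not tested. Ppt2 and Sfxn5 were below their control means in all 3 injuries and were highest in IRI among them. Nearest to Lcn2 were Wdr92 (0.982), Pygl (0.956), which encodes liver glycogen phosphorylase and was below its control mean in all 3 injuries, and Rgcc (0.952). For Spp1 they were Dcdc2a (0.926), Bzw2 (0.917) and the metalloprotease Adam12 (0.905). For Clu they were Ostc (0.937), Unc13b (0.925) and Rgs2 (0.925), a regulator of G protein signalling. For Vim they were Nup188 (0.988), Timp1 (0.966), an inhibitor of matrix metalloproteases, and Vasp (0.939), an actin regulator. For Cd44 they were the tight junction gene Cldn1 (0.980), Adam8 (0.974) and H2-T23 (0.970), the last below its control mean in all 3 injuries. By Spearman's rho 6 of these 18 genes were among the first 3 for their marker, Wdr92, Bzw2, Ostc, Nup188, Adam8 and H2-T23. The other 12 were at ranks 4 to 131, with Sfxn5 and Rgs2 at rank 30, Adam12 at rank 35 (rho 0.741) and Timp1 and Vasp at rank 131 (0.832 each), so most of this list depends on the measure.

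Cldn1 followed the order of Cd44 across injuries, with 64.7 ± 6.05, 157 ± 25.1 and 201 ± 19.2 CPM (SD, n = 4 each) in IRI, rhabdomyolysis and cisplatin. Timp1 followed that of Vim, with 19.7 ± 4.63, 116 ± 67.5 and 43.1 ± 25.7 CPM.

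Partners of the markers were counted in lists of related genes, against the shares called over all tested genes. Of the names written, 13 of 17 were tested for osteopontin, 11 of 23 for hyaluronan and 8 of 12 for lipocalin-2. They were 14 of 22 for apoptotic uptake, 8 of 17 for clusterin and 16 of 19 for filaments. For the regulators they were 20 of 22, and for the other biomarkers 27 of 38. The table holds only genes that moved 1.5-fold or more, so members that stayed level are missing from these counts. Over all 5672, 40.1%, 46.5% and 44% were called lower in IRI, rhabdomyolysis and cisplatin, and the median log2 change was 0.08, 0.31 and 0.30. Values for the injuries follow in that order, on the log2 scale unless given in CPM. Of 13 osteopontin receptor and cleavage genes tested, 11 rose and 1 fell in IRI, 10 and 3 in rhabdomyolysis, and 10 and 1 in cisplatin, with medians of 1.25, 1.58 and 1.33. The urokinase receptor gene Plaur went from 2.59 ± 0.835 CPM in controls (SD, n = 8) to 39.3 ± 12.6, 189 ± 26.0 and 92.2 ± 16.1 CPM in the 3 injuries, and Itgav, the integrin chain that pairs into osteopontin receptors, rose by 0.93, 1.31 and 1.87. Its partner Itgb6 rose in IRI (0.66) and cisplatin (1.11) and fell in rhabdomyolysis (-0.70). Itgb3 rose by 1.90, 2.13 and 2.32, and the lowest were Itgb8 (-0.13, not passing, -1.49 and -0.87) and Itga8 (-1.35, -0.76 and -0.47, the last not passing).

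Of 11 tested hyaluronan and CD44 partners, 9 rose and 2 fell in IRI, 8 and 2 in rhabdomyolysis, and 8 and 1 in cisplatin, with medians of 0.79, 0.75 and 1.59. Tlr4 (0.94, 2.39 and 1.88) and the membrane protease Mmp14, which can cleave CD44 (1.64, 1.85 and 1.72), led the list. Stab2, a hyaluronan scavenger receptor, was the lowest (-2.43, -2.36 and -3.93), followed by Hmmr (-0.65, -0.69 and -0.18, the last not passing).

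Of 8 lipocalin-2 uptake and iron genes, 3 were higher and 5 lower in each injury, with medians of -0.44, -1.20 and -1.03. Over all tested genes 40.6%, 48.8% and 47.8% were higher and 40.1%, 46.5% and 44% lower. With 8 genes, these counts are no result about the list. Under quantile normalization 2 in place of 5 were lower in IRI. Both receptors fell while Lcn2 rose. Lrp2, which encodes megalin, fell by 0.60, 2.46 and 1.67 on the log2 scale, and Slc22a17 fell by 1.52, 1.80 and 1.56. Bdh2 was the lowest (-1.85, -2.78 and -1.89). Tfrc, the transferrin receptor, rose by 1.99, 0.68 and 0.42, and Mmp9 rose from 0.637 ± 0.258 CPM to between 2.72 and 3.76 CPM.

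Of 14 apoptotic cell uptake genes, the setting of Havcr1, 11 rose and 2 fell in IRI and 12 and 2 in each of the other injuries, with medians of 0.89, 1.12 and 1.04. Timd2 rose by 1.52, 0.61 and 0.39, against 9.64, 8.96 and 8.83 for Havcr1. The 2 genes share 135 stretches of 31 bases, and the part of Havcr1 reads in the Timd2 values was not tested. Msr1 (1.67, 2.40 and 2.29) and Anxa1 (1.75, 2.74 and 1.56) led, and Gas6, a bridging ligand of dying cells, fell by 0.76, 1.77 and 0.44.

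Of 8 clusterin receptor and terminal complement genes, 4 rose and 3 fell in IRI, 5 and 3 in rhabdomyolysis, and 4 and 3 in cisplatin, with medians of 0.57, 1.41 and 1.17. C3 rose by 3.24, 1.72 and 5.15 and the receptor Lrp8 by 3.50, 3.75 and 2.44, while C8a fell by 3.69, 2.99 and 1.51 and C8g by 1.59, 1.72 and 1.59.

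Among 16 intermediate filament and linker genes around vimentin, 13 rose and 0 fell in IRI, and 15 rose and 1 fell in each of the other injuries, with medians of 0.95, 1.69 and 1.60. The simple-epithelium keratins Krt8 (1.88, 2.23 and 2.54) and Krt18 (1.81, 3.09 and 3.00) rose with Vim, as did Krt19 (2.74, 3.76 and 3.39). Krt20 went from 0.218 ± 0.260 CPM to 191 ± 70.3, 354 ± 104 and 807 ± 188 CPM, highest in cisplatin as Cd44 was. Lmnb2 (1.01, 0.52 and 0.51) and Evpl (0.18, not passing, -1.98 and -0.81) were the lowest.

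Of 20 injury regulators, 15 of the interleukin-6, NF-kB and C/EBP families and with them Atf3, Foxm1, Junb, Klf6 and Sox9, 17, 20 and 19 rose and 0 fell, with medians of 1.67, 2.14 and 2.12. Atf3 (2.96, 5.70 and 4.29) and Lif, at 11.2 ± 5.15, 20.0 ± 9.10 and 51.6 ± 12.5 CPM against 0.248 ± 0.170 in controls, led. Il6st (0.52, 0.79 and 0.62) and Foxm1 (0.34, 0.67 and 0.24, passing in rhabdomyolysis alone) were the lowest. Of 27 other proposed kidney injury biomarkers, 20, 21 and 22 rose and 5 fell in each injury, with medians of 2.68, 3.51 and 3.45. Cdkn1a, the cell cycle inhibitor p21, rose by 3.74, 6.31 and 7.82, and the growth factor Egf fell by 5.49, 5.32 and 4.47, next to Kl, which fell by 1.81, 3.04 and 2.54.

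Several markers are also made by cells other than tubule, and the summed CPM of markers of those cells is given beside them. The 7 of 13 neutrophil markers in the table summed to 3.24 to 6.09 CPM in the controls, 16.9 to 33.2 in IRI, 28.3 to 56.7 in rhabdomyolysis and 24.6 to 49.3 in cisplatin, and all 7 rose in each injury. The pair of cisplatin mice high in Lcn2, mice 2 and 3, had neutrophil sums of 45.4 and 49.3, and the low pair, mice 1 and 4, had 24.6 and 25.5. In IRI, mouse 4 had the highest Lcn2 and the lowest neutrophil sum, 16.9, and rhabdomyolysis mouse 4, highest in Lcn2, came second of its group with 34.97. The sums reached at most 56.7 CPM in the injured mice, in which Lcn2 lay between 411 and 2289 CPM. CPM of different genes do not measure shares of cells, and the part of neutrophils in Lcn2 was not tested.

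The 9 of 11 fibroblast and pericyte markers in the table summed to 126 to 268 CPM in the controls, 567.5 to 642 in IRI, 649 to 1596 in rhabdomyolysis and 317 to 795 in cisplatin, and 9, 8 and 8 of them rose and 0 fell. In rhabdomyolysis the mice took the same order in this sum as in Clu, Vim and Cd44, 1, 3, 2 and 4 from the highest, with sums of 1596, 1255, 900 and 649 CPM. The other injuries did not share this. IRI mouse 1 had the highest sum, 642 CPM, and the lowest Clu and Vim of its group. In cisplatin the sum ran 2, 1, 3 and 4 from the highest, an order that none of Clu, Vim and Cd44 took. The 12 of 15 macrophage and monocyte markers summed to 205 to 319 CPM in the controls, 193 to 245 in IRI, 225 to 450 in rhabdomyolysis and 309 to 453 in cisplatin. Of these 12, 5 rose and 2 fell in IRI, 10 and 2 in rhabdomyolysis, and 9 and 2 in cisplatin. The pair that fell in each injury, Cd74 (148 CPM in controls and 53.2 in IRI) and Csf1r (51.7 and 16.1), named after their values were seen, held much of the sum in controls.

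The 5 of 10 endothelial markers gave 175 to 363 CPM in the controls, 342 to 382 in IRI, 605 to 860 in rhabdomyolysis and 384 to 541 in cisplatin. In IRI 3 of the 5 rose, Vwf fell (-0.67, limma adjusted p = 0.0232) and Cdh5 did not pass (0.42, 0.131), and all 5 rose in each of the other injuries. The 4 of 8 podocyte and parietal epithelium markers gave 183 to 489, 543 to 656, 798 to 1087 and 677 to 834 CPM, and 4, 3 and 2 of them rose and 0 fell in IRI, rhabdomyolysis and cisplatin. Of 10 T and B lymphocyte markers 2 were in the table, at most 3.73 CPM in sum, and the 1 that was tested, Cd8a, fell in rhabdomyolysis (log2 difference -0.95, limma adjusted p = 0.000904) and cisplatin (-0.54, 0.0423) and did not pass in IRI (-0.36, 0.172). Vwf, Cdh5 and Cd8a were named after their values were seen. No marker of these lists that was in the table was at 0 throughout a group. The part of these cells in the levels of the 6 markers was not tested.

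The labelled tissue was borne out by the nephron markers. All 15 proximal tubule markers were in the table, with sums of 32711 to 58691 CPM in the controls, and 13, 15 and 15 of them were lower in the 3 injuries. Their sums were 10939 to 17079 CPM in IRI, 9743 to 11477 in rhabdomyolysis and 5221 to 9012 in cisplatin. In the controls the 7 of 9 thick ascending limb and distal tubule markers summed to 2856 to 4962 CPM. Over the injured mice they summed to 537 to 1021 CPM, and 7, 6 and 7 of them were lower in the 3 injuries. Trpm6, named after its value was seen, did not pass in rhabdomyolysis (log2 -0.15, limma adjusted p = 0.588). The sum of the 3 of 9 collecting duct markers fell from 266 to 391 CPM to between 92.0 and 193 CPM, and all 3 were lower in each injury.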

How the data were processed

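The authors deposited 1 table of normalized values, which are CPM by their behaviour. Within each library 100% of the values are whole multiples of 1 step (tolerance 0.001), from which reads were recovered. In cisplatin mouse 2 the step (0.101) lies near 0.1, where whole reads and rounding are harder to tell apart, so its read counts are less certain. Libraries were stranded, polyadenylated and sequenced as 150-bp pairs, per the labels' protocols. FastQC, Bowtie2 2.1.0, RSEM 1.2.15, edgeR and the builds GRCm38 and mm10 are named in the submitters' processing notes, and the normalization is not given in the sources used here.

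A pseudocount of 1 was added to the CPM before taking log2, and limma 3.58.1 (R 4.3.3, trended prior variance) was fitted as 1 model of 5 cells, the 3 injuries and the controls of each range of library numbers. Tested were the 5672 genes that averaged 1 CPM or more (353 were left out), with Benjamini-Hochberg adjustment over all 5672 and a threshold of 0.05. On this scale the rise of genes with few control reads, such as Lcn2, is understated. On the recovered reads edgeR 4.0.16 called 4545, 5397 and 5186 genes in IRI, rhabdomyolysis and cisplatin, and limma 4578, 5404 and 5208. DESeq2 1.42.0, other pseudocounts, filters and scalings, other control groups and leaving out each library were alternatives. The script was tested on simulated data. Reads carry no molecular tags, so counting errors cover counting only.

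The members, gene lists, tests and alternatives were chosen with earlier results of these data known. The text names the members, the 3 nearest genes of each, and of each pathway list the 2 highest and 2 lowest genes by mean change over the injuries, plus Lrp2, Slc22a17, Itgav, Itgb6, Krt8, Krt18, Krt20, Egf, Timd2, Timp1 and Cdkn1a.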

Additional observations from a re-analysis of the deposited data

Results flagged for a closer look

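Of the 18 tests of a marker between injuries, 9 passed a limma adjusted p of 0.05 (4, 3 and 2 of 6 in the 3 comparisons), where 54.1%, 52% and 30.3% of all tested genes passed. A large part of the table thus differs between injuries, and the count is no result about the markers as a set. Between rhabdomyolysis and cisplatin the log2 differences were 0.83 for Lcn2, 0.92 for Spp1, 1.09 for Clu and -0.83 for Cd44. Between the effects of IRI and rhabdomyolysis they were -1.47 for Lcn2, -0.98 for Vim and -1.21 for Cd44, and between those of IRI and cisplatin 0.67 for Spp1 and -2.04 for Cd44. Cd44 differed in all 3 comparisons. Sampling at 72 h in cisplatin and at 24 h in the others cannot be told apart from the injury. In 24 groups of 4 or 8 libraries (the 6 markers in 4 groups), no mouse stood far from the others by Dixon's test, where chance gives about 1.2.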

How the results depend on the processing

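All 6 markers were called higher in each injury under every alternative run, including each left-out library, and 348 of 348 of their values kept direction and call. Between injuries, 404 values kept both, 22 came to pass, 17 no longer passed and 1 changed sign, Havcr1 in rhabdomyolysis against cisplatin under quantile normalization (-0.0338). The count of markers that differed between the effects of IRI and cisplatin, 2, became 1 with quantile normalization, 4 with all 8 controls as 1 group and 4 in a fit of only the groups compared, and lay between 1 and 3 when single libraries were left out. It was 3 to 5 for rhabdomyolysis against cisplatin and 2 to 4 for IRI against rhabdomyolysis over all alternatives. In cisplatin the difference in rise of Havcr1 and Lcn2 (0.06) was -0.60 with a pseudocount of 0.1 and lay between -0.16 and 0.29 when single libraries were left out. The cause was not tested. Of the 15 order steps, 11 passed, and 10 or 11 without a single library (35 arrangements, smallest p 0.0286). Of the 15 ratios between rhabdomyolysis and cisplatin 0 passed in any of these. Among them the differences of Lcn2 to Spp1 lay between -0.342 and 0.0326 and those of Lcn2 to Vim between -0.0922 and 0.654 when single libraries were left out. Scaling moved the median change of all tested genes from 0.08, 0.31 and 0.30 to 0.18, 0.44 and 0.37 (75th percentile) or 0.02, 0.14 and 0.03 (quantile). List counts kept within 1.5 times in 914 of 928 cases.

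Samples with the same replicate number did not pair. Their deviations correlated between -0.11 and 0.18 for IRI and controls and between -0.21 and 0.32 for rhabdomyolysis and cisplatin, and 2 of 8 libraries correlated best with their own number in each case. With the replicate number as a block, 6 markers were called in IRI and 3 between rhabdomyolysis and cisplatin (Lcn2 adjusted p = 0.117), and over all genes 4411 in place of 4578 and 2834 in place of 3068. Depth limits Lcn2, Havcr1 and Cd44 in controls, with 3 to 34 reads each.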
